A study of Mus musculus with 4 samples.

Results

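The neurofilament genes Nefl, Nefm, Nefh, Ina and Prph, the stathmin genes Stmn1, Stmn2, Stmn3 and Stmn4, and Gap43 were described in sorted retinal neurons of mice at postnatal day 6. Every probe set whose annotation names only one of these genes was taken, which gave 19 of the 34945 probe sets with 1 gene and all 10 genes among 18193. The genes were chosen by their intensities on these arrays, both the contrast between the cell groups and the gap between arrays of a group, so their values are given as a description with no test. MP amacrine cells were sorted as CFP+ cells that bound the VC1.1 antibody. MP bipolar cells were sorted as CFP+ VC1.1- cells once a magnetic column had cleared the VC1.1+ cells, and 2 biological replicates, each of another litter, were taken per group. All 4 samples came from offspring of MP-carrying fathers and non-carrier mothers of mixed C57Bl6 and CD1 strain, and their retinas were dissociated with papain. About 1000 cells gave each replicate, and their RNA was amplified in 2 rounds and hybridised to 1 Affymetrix array each. The sources used here do not give the promoter behind the MP transgene, whose cells carry the fluorescent protein CFP.

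Neurofilaments are the intermediate filaments of neurons. They are built from the light, medium and heavy chains (Nefl, Nefm and Nefh), alpha-internexin (Ina) and, in some neurons, peripherin (Prph), and they fill large axons and set their calibre. Stathmins bind tubulin dimers and promote the shrinkage of microtubules. Stmn1 is cytosolic, while Stmn2, Stmn3 and Stmn4 are neuronal and attach to membranes through palmitoylated cysteines. Gap43 is a palmitoylated membrane protein of growth cones that binds calmodulin and is a substrate of protein kinase C. In the retina, neurofilament chains are best known from the axons of ganglion cells and from horizontal cells. Amacrine cells, the inhibitory interneurons of the inner retina, mostly lack a classical axon, and bipolar cells carry photoreceptor signals inward through a short one.

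In MP amacrine cells Stmn2 was higher by 3.67 on the log2(intensity + 16) scale and Ina by 1.58 than in MP bipolar cells, while the difference of Stmn4 was -1.80 (n = 2 per group). Nefm and Nefl averaged 3.13 and 2.23 higher in MP amacrine cells, but that height came mainly from 1 of the 2 amacrine arrays. Stmn1 and Stmn3 overlapped between the groups. Each gene with several probe sets is described by the brightest, unless stated. A gene passed the filter on dim values when 2 or more of the 4 arrays had that probe set above their median, as 9 of the 10 genes did, Gap43 being the exception. The groups did not overlap for 7 of these 9, where 53.3% of all 11583 tested genes were separated in this way. In 5 both amacrine arrays lay above both bipolar arrays (24.2% of tested genes), and in 2 they lay below (29.1%). Of the 15 probe sets above the filter 11 did not overlap, against 51.8% of all such probe sets. Both Stmn2 probe sets and the weaker Nefl probe set passed the filter through the MP amacrine arrays only, so their separation followed from the filter. As the genes were also chosen on this contrast, these counts describe the choice and are no support for a difference. The median difference of the 9 genes was 0.24 beside -0.03 over all tested genes. In samples of many cells, fewer cells of a type and less RNA per cell cannot be told apart.

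**Figure D1:**
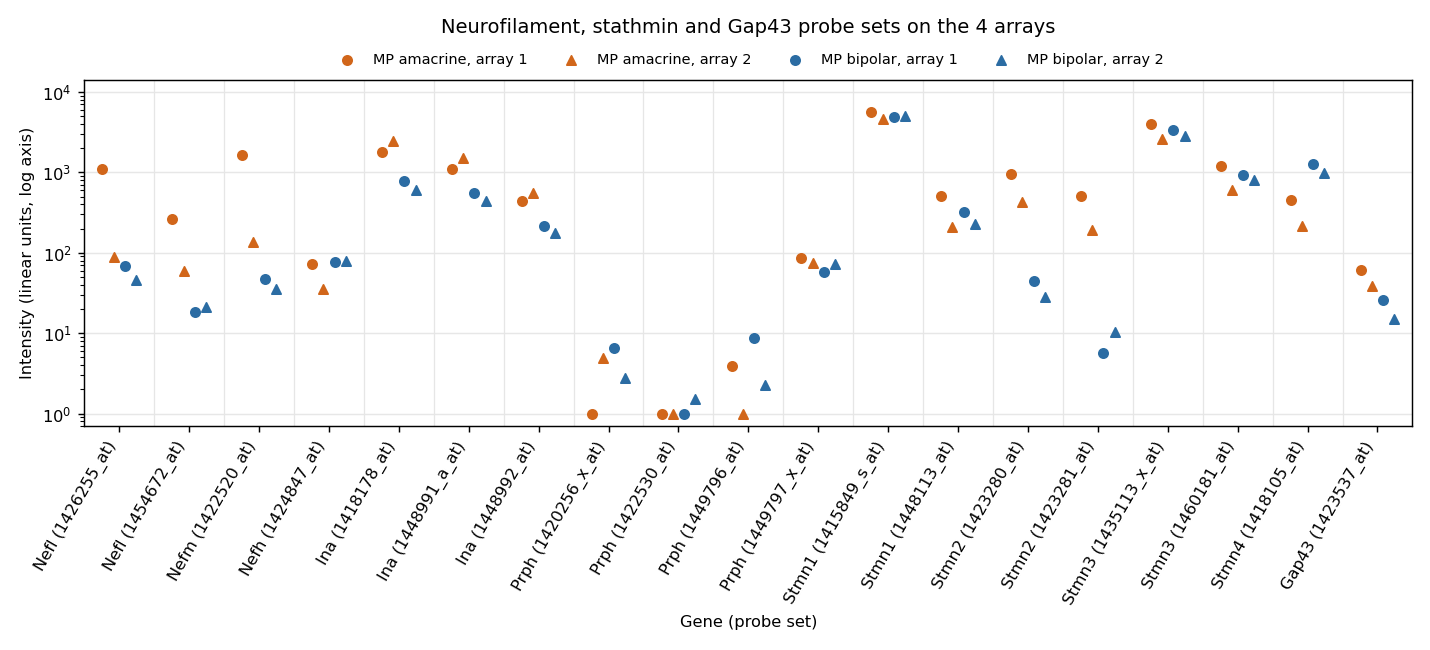
Intensity (linear units, log axis) of the 19 probe sets on the 4 arrays, MP amacrine in orange and MP bipolar in blue, with circles for array 1 and triangles for array 2. Nefl and Nefm stand far higher on MP amacrine array 1 than on array 2, both Stmn2 probe sets and all 3 Ina probe sets separate the groups, and 3 of 4 Prph probe sets lie near the floor of 1.

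Most tested markers of both sorted cell types followed the labels of the arrays. Neurod6, the transcription factor in the title of the series, had intensities of 1680 and 1493 on the MP amacrine arrays, against 9.55 and 5.99 on the MP bipolar arrays. Of 7 tested amacrine markers 6 were called higher in MP amacrine cells and none lower, with a median log2 difference of 2.80, the brightest being the vesicular transporter Slc32a1 and the transcription factor Pax6. Of 8 tested bipolar markers 5 were called lower and none higher (median -1.76), and the transcription factors Prdm8 and Otx2 were the brightest. Prdm8 itself was not called (-0.22), and Isl1 leaned the other way without a call (0.64). Neurod6 and the amacrine markers Barhl2 and Tfap2c passed the filter through the MP amacrine arrays only. The bipolar marker Grik1 passed it through the MP bipolar arrays only, so the separation of these genes followed from the filter. Both marker lists had their summed intensity on one side, at 4147 and 4553 in MP amacrine cells against 518 and 558 in MP bipolar cells for amacrine markers. The bipolar markers summed to 8027 and 7594 in MP amacrine cells against 15908 and 16190 in MP bipolar cells. Rod markers, led by Gngt1 and Sag, summed to 10684 and 6435 in MP amacrine cells against 7072 and 8670 in MP bipolar cells, so rod transcripts gave signal in both sorts. MP amacrine array 2 stood apart in its control probe sets, where the 3-prime actin probe set exceeded the 5-prime one by 3.82 on the log2 scale, against 1.89 on MP amacrine array 1 and 2.13 and 1.99 on the bipolar arrays.

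Among the subunits that co-assemble in neurofilaments, the medium chain Nefm had intensities of 1631 and 136 on MP amacrine arrays 1 and 2, against 47.7 and 35.0 on the MP bipolar arrays. The light chain Nefl had 1102 and 87.5 in MP amacrine cells, against 68.6 and 45.7 in MP bipolar cells. The weaker probe set of Nefl had 264 and 59.7 in MP amacrine cells, against 18.5 and 21.3 in MP bipolar cells. Both genes were thus far brighter on MP amacrine array 1 than on the other arrays, and MP amacrine array 2 lay between it and the bipolar arrays. The ratio of array 1 to array 2 in MP amacrine cells was 12.6 for Nefl and 12.0 for Nefm. Without MP amacrine replicate 1 the log2 difference was 0.52 for Nefl and 1.41 for Nefm, and without MP amacrine replicate 2 it was 3.95 and 4.85. Nefl and Nefm are neighbouring coding genes on chromosome 14 in the RefSeq annotation.

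The gap between the MP amacrine arrays was 3.43 for Nefl and 3.44 for Nefm on the log2 scale. Over all tested genes its median size was 0.25, and only 0.224% of them exceeded 2. Nefm and Nefl ranked 3 and 4 of 11583 by the size of this gap on their brightest probe sets. The weaker Nefl probe set had a gap of 1.89, a size that 31 tested genes reached. Gaps larger than that of Nefm were seen for Xist (111 and 2574 on MP amacrine arrays 1 and 2), the noncoding RNA of X inactivation in females, and for the histone gene H2ac19 (1093 and 84.1). Xist had 4920 and 5536 on the MP bipolar arrays, so MP amacrine array 1 was the lowest of the 4. MP amacrine array 2 also stood apart in its 3-prime controls. The part of animal sex, or of what set those controls apart, in the gaps was not tested. Of the 9 neurofilament and stathmin genes that passed the filter, 8 were higher on MP amacrine array 1 than on array 2, as were 55.8% of all tested genes. Ina was the exception. The gap between the MP bipolar arrays was at most 0.46 for these 9 genes.

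**Figure D2:**
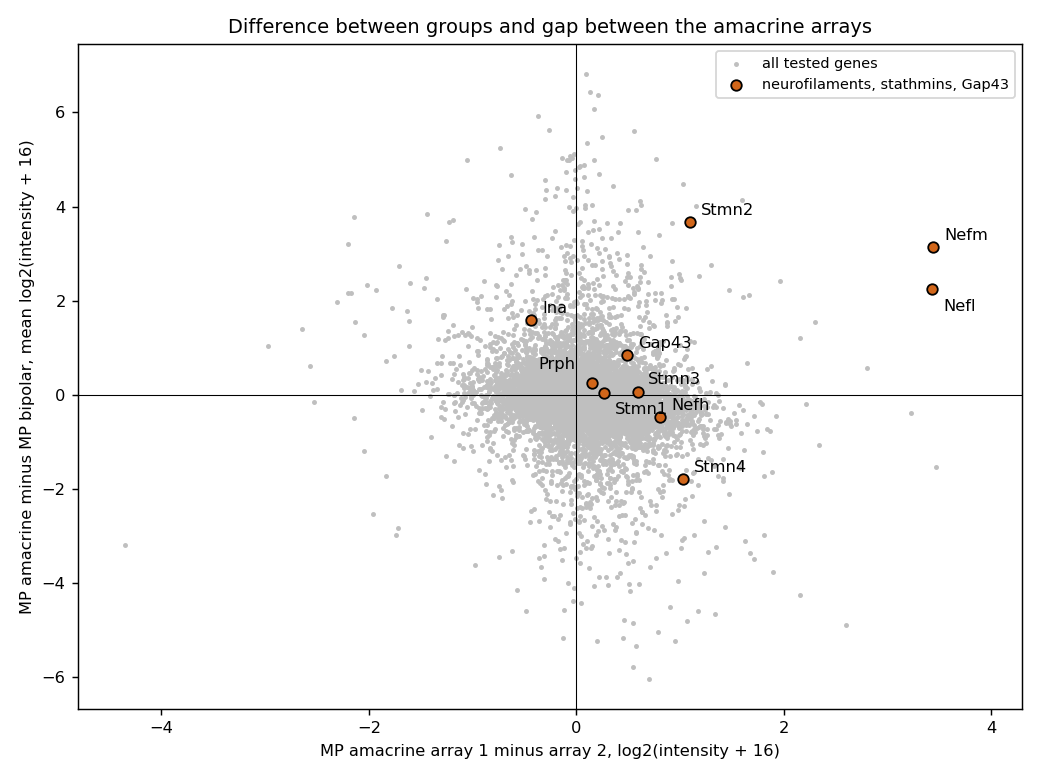
Each point is a gene, with the gap between MP amacrine arrays 1 and 2 on the x axis and the difference between MP amacrine and MP bipolar cells on the y axis, both on the log2(intensity + 16) scale. Nefl and Nefm lie at the right edge, at gaps of 3.43 and 3.44, while Stmn2 (1.10) and Ina (-0.43) differ between groups with much smaller gaps.

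Nefl and Nefm also mark horizontal and ganglion cells, and the markers of both were set beside them. Of 9 horizontal cell markers on the array, 6 were higher on MP amacrine array 1 than on array 2, as were 55.8% of all tested genes. Their summed intensity was 3673 and 1800 on MP amacrine arrays 1 and 2, against 1845 and 1818 on the MP bipolar arrays. The calcium-binding protein Calb1 had 517 and 39.5 in MP amacrine cells, against 19.2 and 17.0 in MP bipolar cells. Lhx1, a transcription factor needed by horizontal cells, had 51.2 and 3.79 in MP amacrine cells, against 10.6 and 9.52 in MP bipolar cells. Both genes shared the height of array 1 and were named after their values were seen. The brightest of the list were Ndrg1 (1641 and 820 in MP amacrine cells, against 904 and 929 in MP bipolar cells) and the septin Septin4 (632 and 112, against 561 and 617). Both stood higher on amacrine array 1 than on array 2. For Septin4, array 1 lay close to the bipolar arrays, and array 2 lower. Together Ndrg1 and Septin4 made up most of the summed intensity of the list on every array, those of MP bipolar cells included. The transcription factor Onecut2 ran the other way, with 191 and 453 in MP amacrine cells against 263 and 172 in MP bipolar cells, and the related Onecut1 had 48.2 and 54.1 against 30.4 and 38.2. No marker of this list lay below an intensity of 16 on every array. Of 5 tested 1, Tfap2b, was called higher in MP amacrine cells, as were 6.54% of all tested genes. Tfap2b is a transcription factor of amacrine as well as horizontal cells. It passed the filter through the MP amacrine arrays only, so its separation followed from the filter. Markers of other cells also stood higher on MP amacrine array 1 than on array 2. They were 6 of 10 bipolar, 4 of 6 rod, 6 of 8 Müller glia and 3 of 9 amacrine markers on the array. The bipolar marker Cabp5 had 259 and 29.4 in MP amacrine cells, against 3251 and 3428 in MP bipolar cells. The part of horizontal cells in the neurofilament values was not tested.

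Ganglion cell markers were split between the amacrine arrays. Of 13 on the array 6 were higher on MP amacrine array 1 than on array 2, against 55.8% of all tested genes. Their median gap was -0.01. They summed to 1385 and 1974 in MP amacrine cells, against 3158 and 4145 in MP bipolar cells. Without Thy1, which set the order of that sum between the amacrine arrays, they summed to 579 and 519 in MP amacrine cells, against 695 and 730.4 in MP bipolar cells. The transcription factor Pou4f3 lay between 1.56 and 2.82 on all arrays, and Irx2 was the other marker below 16 on all arrays. Pou4f1, a transcription factor of many ganglion cells, had 157 and 88.8 in MP amacrine cells, against 60.3 and 36.8 in MP bipolar cells, and did not pass the test (log2 difference 1.08, adjusted p = 0.0528, limma). Of 7 tested ganglion cell markers none was called higher and 3 were called lower in MP amacrine cells, among them the surface glycoprotein Thy1 (-1.41) and the adhesion protein Jam2 (-0.97), the brightest of the list. Ebf4, also called lower, passed the filter through the MP bipolar arrays only, so its separation followed from the filter. The part of ganglion cells in the neurofilament values was not tested.

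**Figure D3:**
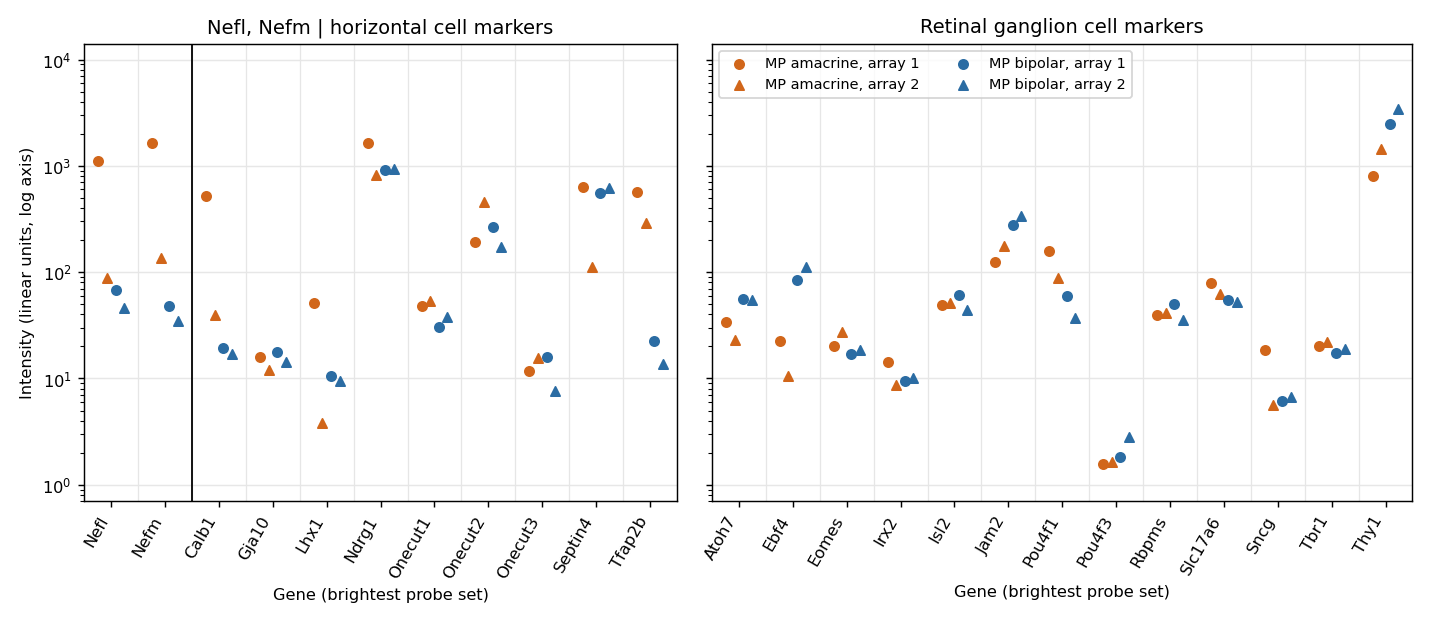
Intensity (linear units, log axis) of Nefl, Nefm and 9 horizontal cell markers (left) and of 13 ganglion cell markers (right) on the 4 arrays, with the brightest probe set per gene. Of the 9 horizontal cell markers 6 are higher on MP amacrine array 1 than on array 2, as are 6 of the 13 ganglion cell markers. Calb1 and Lhx1, named after their values were seen, stand highest on MP amacrine array 1, while Onecut2 stands highest on MP amacrine array 2.

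The other neurofilament genes had patterns of their own. Alpha-internexin, which can form filaments without the other chains and appears early in neuronal development, had 1804 and 2443 in MP amacrine cells, against 783 and 610 in MP bipolar cells. The other Ina probe sets gave log2 differences of 1.37 and 1.26, so that all 3 probe sets of the gene separated the groups. Ina averaged 2123 ± 452 in MP amacrine cells and 696 ± 122 in MP bipolar cells (SD, n = 2 each). Unlike Nefl and Nefm, it was higher on MP amacrine array 2, and its difference was 1.36 without MP amacrine replicate 2 and 1.80 without MP amacrine replicate 1.

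The heavy chain Nefh, which carries long runs of phosphorylated repeats and is added late as axons mature, had 73.2 and 35.0 in MP amacrine cells, against 77.7 and 79.1 in MP bipolar cells. MP amacrine array 1 lay close to the bipolar arrays, and array 2 lower. The log2 difference was -0.49 with both, and -0.08 without MP amacrine replicate 2. Peripherin had 4 probe sets. Of these, 3 lay between 1 and 8.68 on all arrays, below an intensity of 16, and the groups overlapped. The brightest had 85.4 and 75.3 in MP amacrine cells, against 58.3 and 72.8 in MP bipolar cells, a difference of 0.24, and its name ends in x_at, the manufacturer's mark for probes that may also match other transcripts. The mean of all 4 gave -0.03, so the direction of Prph was not settled.

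Among the stathmins, Stmn2 (SCG10), the stathmin of growing axons, separated the groups most. Its brighter probe set had 941 and 431 in MP amacrine cells, against 44.0 and 27.9 in MP bipolar cells. The other had 502 and 193 in MP amacrine cells, against 5.65 and 10.5 in MP bipolar cells. Both amacrine arrays stood far above both bipolar arrays on each probe set. The differences were 3.67 and 3.78, and the brighter probe set gave 3.12 without MP amacrine replicate 1. Stmn4 (RB3), another neuronal stathmin, was the member that ran most the other way, with 449 and 212 in MP amacrine cells, against 1272 and 976 in MP bipolar cells. The groups did not overlap, and the difference lay between -2.31 and -1.28 when each replicate was left out in turn. It was represented by a single probe set.

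Stmn1, the stathmin that dividing cells and neurons share, had 5580 and 4632 in MP amacrine cells, against 4876 and 5015 in MP bipolar cells. Its dimmer probe set had 508 and 210 in MP amacrine cells, against 324 and 225 in MP bipolar cells. The amacrine arrays bracketed the bipolar arrays on both probe sets, and the differences were 0.04 and 0.26. Stmn3 (SCLIP), a neuronal stathmin of dendrites and axon branches, had 3943 and 2614 in MP amacrine cells, against 3360 and 2818 in MP bipolar cells. Its other probe set had 1211 and 606 in MP amacrine cells, against 919 and 804 in MP bipolar cells. Again the amacrine arrays lay on either side of the bipolar arrays, with differences of 0.061 and -0.0035. The sign of both genes turned when MP amacrine replicate 1 was left out, to -0.09 for Stmn1 and -0.23 for Stmn3.

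Gap43 was dim on all 4 arrays. It had 60.3 and 38.3 in MP amacrine cells, against 25.8 and 15.2 in MP bipolar cells, and it lay above the array's median on 1 array only, MP amacrine array 1. The amacrine arrays were both above the bipolar arrays, and the difference of 0.83 depended on the offset, being 1.24 with an offset of 1 and 0.42 with 64.

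RefSeq promoter windows (GRCm38.p6) were on hand for 3 of the 10 genes. The 250 bases before the gene start are shown for Ina, whose probe sets separated the groups, and for Stmn3, whose probe sets did not. Neurod6 belongs to the basic helix-loop-helix factors, which bind the E-box CANNTG. Capitals mark each E-box, a motif that reads the same way on both strands. Ina lies at chr19:47014431-47014680 on the plus strand and Stmn3 at chr2:181314501-181314750 on the minus strand, and each is written 5′ to 3′ along its gene.
Ina: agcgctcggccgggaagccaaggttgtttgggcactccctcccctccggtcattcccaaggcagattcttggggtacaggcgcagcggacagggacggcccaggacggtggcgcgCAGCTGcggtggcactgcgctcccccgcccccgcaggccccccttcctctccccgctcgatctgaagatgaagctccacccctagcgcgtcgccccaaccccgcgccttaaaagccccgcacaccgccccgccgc
Stmn3: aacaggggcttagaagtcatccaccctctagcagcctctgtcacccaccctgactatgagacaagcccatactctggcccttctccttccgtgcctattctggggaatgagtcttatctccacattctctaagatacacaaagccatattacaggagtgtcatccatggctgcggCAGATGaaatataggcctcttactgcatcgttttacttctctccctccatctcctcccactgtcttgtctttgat
Both windows held 1 E-box, CAGCTG in Ina and CAGATG in Stmn3, while the window of Prph, not shown, held none, and 66.2% of the 32851 windows of this length held at least 1. A match describes these letters and is no evidence of binding.

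Genes that work beside the neurofilaments, stathmins and Gap43 were tested in 5 lists, of 100 genes, of which 96 were measured and 84 passed the filter. MP amacrine and MP bipolar cells differed for 22 of the 84, of which 10 were higher and 12 lower in MP amacrine cells (adjusted p under 0.05, limma, n = 2 per group). Over all tested genes 13.5% were called, 6.54% higher and 6.92% lower. The lists were chosen with earlier results of these data known, so their share of calls beside this one is a description only. The median difference was 0.10 over the lists and -0.03 over all tested genes. After quantile scaling of the arrays the split was 16 higher and 6 lower. Without MP bipolar replicate 2 the count was 11, and without MP bipolar replicate 1 it was 14.

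Of 8 tested intermediate filament genes and their linkers, 1 was higher and 1 lower in MP amacrine cells. Vimentin (Vim), the filament of glia and progenitors, had 1672 and 1518 in MP amacrine cells, against 108 and 233 in MP bipolar cells (log2 difference 3.19, SE 0.33, adjusted p = 4.86e-04). The keratin Krt18 had 50.8 and 23.99 in MP amacrine cells, against 81.8 and 131 in MP bipolar cells (-1.21, adjusted p = 0.0382), and its call was lost in 7 of 13 alternatives, among them without MP amacrine replicate 2 and without MP bipolar replicate 2. With probe sets ending in s_at, x_at or a_at left out, Vim gave 1.43 and was not called. Vim is also a Müller glia marker. Of 7 tested Müller markers 2 were called higher in MP amacrine cells, Vim and Dkk3 (1.60), and the list summed to 4560 and 4110 in MP amacrine cells against 2211 and 2715 in MP bipolar cells. Without Vim itself the sums were 2889 and 2592 in MP amacrine cells, against 2103 and 2482 in MP bipolar cells. Glutamine synthetase (Glul), the brightest of them beside Vim, had 2103 and 1870 in MP amacrine cells, against 1594 and 1937 in MP bipolar cells. The part of Müller glia in the value of Vim was not tested.

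Of 13 tested tubulin genes 2 were higher and none lower in MP amacrine cells, with a median difference of 0.15. They were the neuronal beta-tubulins Tubb2a (0.70, SE 0.12, adjusted p = 0.00675) and Tubb2b (0.65, SE 0.12, adjusted p = 0.00714). Their sequences are nearly identical, so that probes for one may read the other. Both calls were lost without the intensity trend and without the filter, that of Tubb2a also without MP bipolar replicate 1 and that of Tubb2b without MP bipolar replicate 2.

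Of 26 tested proteins that bind microtubules, 1 was higher and 6 were lower in MP amacrine cells, with a median of -0.11. That split depended on the processing, with 2 higher and 2 lower after quantile scaling, 1 and 1 without the filter or without MP bipolar replicate 2, and 1 and 2 without MP bipolar replicate 1. Tau (Mapt), which stabilises axonal microtubules, had 2472 and 2460 in MP amacrine cells, against 936 and 852 in MP bipolar cells (1.45, SE 0.15, adjusted p = 5.83e-04). One of its other probe sets gave -0.29. Map7, a cofactor of the motor kinesin-1, had 887 and 759 in MP amacrine cells, against 2607 and 2777 in MP bipolar cells (-1.69, SE 0.16, adjusted p = 3.36e-04). Its relative Map7d2 (-1.10, SE 0.22) and Map6, which protects stable microtubules (-1.16, SE 0.30), were also lower, and both lost their call without MP bipolar replicate 2. Map6 also lost it without MP amacrine replicate 1 and without MP bipolar replicate 1.

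Of 20 tested growth cone proteins 3 were higher and 2 lower in MP amacrine cells (median 0.11). The membrane proteolipid Gpm6b had 3676 and 3914 in MP amacrine cells, against 874 and 927 in MP bipolar cells (2.06, SE 0.14, adjusted p = 6.61e-05). The actin-binding protein Cotl1 (1.25, SE 0.24) and Dpysl4, a collapsin response mediator (1.11, SE 0.18), were higher too. The call of Cotl1 was lost in 3 of 13 alternatives, without the filter, with the mean of all probe sets and without MP bipolar replicate 2. The brightest probe set of Cotl1 ends in x_at, and its others above the filter gave 0.42, 0.43, 0.96 and 1.08. Another probe set of Dpysl4 gave -0.05. Pcp4, a small calmodulin regulator with an IQ motif like that of Gap43, had 953 and 288 in MP amacrine cells, against 5625 and 5535 in MP bipolar cells (-3.37, SE 0.45, adjusted p = 0.00180), and it was not called without the filter.

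Among 17 tested enzymes and RNA-binding proteins that act on these genes or their products, 3 were higher and 3 lower in MP amacrine cells (median 0.10). The c-Jun N-terminal kinases, which phosphorylate stathmins and neurofilaments, were split. Mapk10 (JNK3) had 2030 and 1787 in MP amacrine cells, against 230 and 308 in MP bipolar cells (2.77, SE 0.22, adjusted p = 1.43e-04). Mapk8 (JNK1) had 343 and 436 in MP amacrine cells, against 1183 and 982 in MP bipolar cells (-1.44, SE 0.23, adjusted p = 0.00402). Cdk5r2, an activator of the neurofilament kinase Cdk5, was 2.15 higher (SE 0.28). It passed the filter through the MP amacrine arrays only, so its separation followed from the filter. Camk4, a kinase that phosphorylates stathmin, had a log2 difference of -1.38 (SE 0.16). Another probe set of Camk4 gave 0.61, and the gene was not called by the mean of its probe sets.

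**Figure D4:**
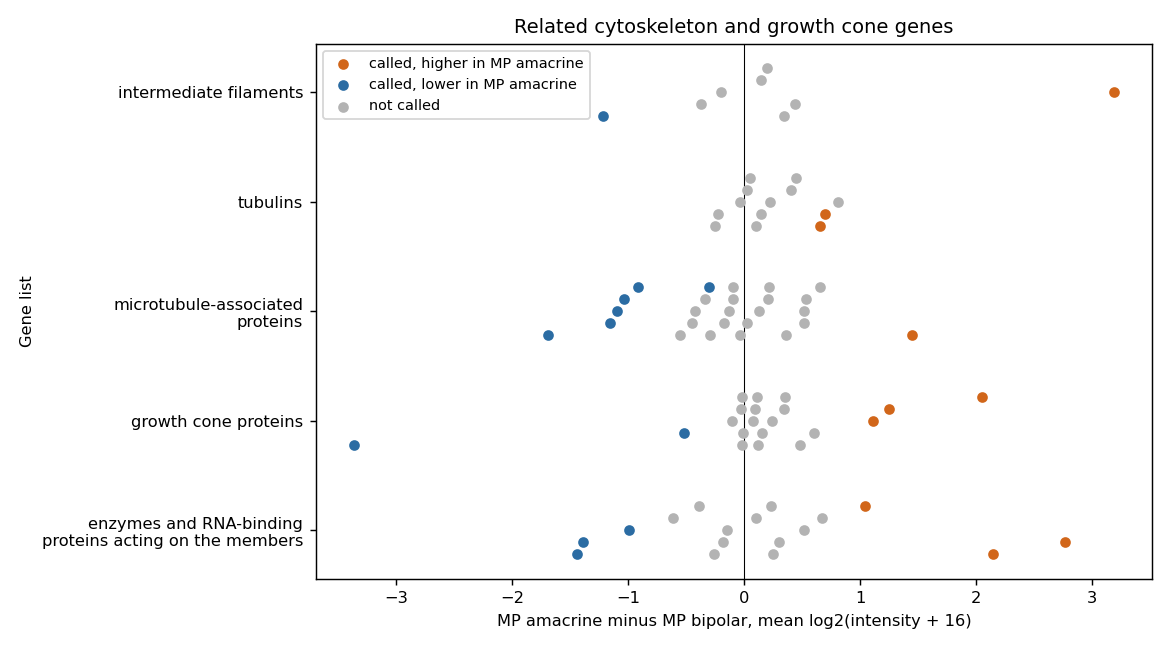
Differences between MP amacrine and MP bipolar cells on the log2(intensity + 16) scale for the 84 tested genes of 5 related lists, 1 point per gene, coloured by the limma call and spread vertically within a list for legibility. Called genes lie on both sides of 0, with 6 of the 7 called microtubule-associated proteins lower in MP amacrine cells (2 of 4 after quantile scaling) and both called tubulins higher.

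For 3 members, the tested genes with the most similar pattern over the 4 arrays were found, with all members left out of the search. Nearness was the Euclidean distance between log2(intensity + 16) values, each gene centred on its own mean. For Nefl the nearest were Lratd2 (distance 1.06), the membrane-to-actin linker Ezr (1.13) and the collagen gene Col27a1 (1.26), with Nefm not among the candidates. Ezr had 556 and 99.9 in MP amacrine cells, against 69.6 and 75.9 in MP bipolar cells, so it shared the height of amacrine array 1. For Stmn2 the nearest was Tfap2b (0.14), a transcription factor of amacrine and horizontal cells, with 564 and 290 in MP amacrine cells, against 22.6 and 13.6 in MP bipolar cells. Lrfn5 (0.46) and Enkur (0.47) followed. For Gap43 they were the ubiquitin ligase Siah2 (0.06), the endophilin Sh3gl3 (0.10) and Limd2 (0.10). With 4 arrays, such nearness is a description only.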

How the data were processed

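RNA of 4 samples was measured, 2 of MP amacrine and 2 of MP bipolar cells, and each sample was grouped by its title. The deposited table holds linear intensities for 45101 probe sets, 1 value per array. The sources used here do not say how the authors corrected, summarised or scaled the intensities, and the table has no detection calls. The median intensity was 44.5 to 47.2 per array, so values were used unscaled as log2(intensity + 16). The offset understates differences of dim genes. After 64 control probe sets were left out, 34945 probe sets had 1 gene in the platform annotation, whose symbols matched RefSeq for 18032 of 18193 genes. The brightest probe set stood for a gene. The 11583 genes with 2 or more arrays above their median were tested with limma 3.58.1 in R 4.3.3 (lmFit, eBayes with an intensity trend), two-sided, Benjamini-Hochberg adjusted over all tested genes, at a threshold of 0.05. The fit had 2 residual degrees of freedom. On simulated data with 200 genes changed and the SDs shuffled over genes, it recovered 10.6% of changes of 1 and 65.8% of changes of 2 on the log2 scale. In the data 1559 genes were called and SDs were not shuffled, so these shares need not hold there. Genes that were not called may still differ. P-values measure the spread between arrays, in which litter, animal sex, sort, amplification and hybridisation cannot be told apart, and the number of arrays limits precision. Levels of different probe sets are not comparable.

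The members and lists were chosen with earlier results of these data known. All members were named, with up to 4 called genes of each related list by absolute difference. Also named were the 3 nearest genes outside the members for Nefl, Stmn2 and Gap43, the 2 brightest genes of each marker list, and Neurod6. The other list genes given with values were named after their values were seen. Some listed genes are not reported here. Alternatives were quantile and median scaling, offsets of 1 and 64, other filters, other choices of probe sets, no intensity trend, the replicate number as a block, and each replicate left out.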

Additional observations from a re-analysis of the deposited data

How the results depend on the processing

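Over all genes the number called was 1559, against 785 without the filter on dim probe sets and 917 to 1939 with each replicate left out, the lowest without MP bipolar replicate 2. In the related lists the number was 22, against 9 without the filter, 12 with the mean of all probe sets and 11 to 22 with each replicate left out. By list, over 14 alternatives, it was 2 to 7 for microtubule-associated proteins (7 as tested), 2 to 7 for growth cone proteins (5), 2 to 7 for the enzymes and RNA-binding proteins (6), 0 to 4 for tubulins (2) and 1 to 2 for intermediate filaments (2). Gpm6b, Map7, Mapk10, Mapk8 and Mapt kept their call in all 14 alternatives. Prph turned to -0.026 with the mean of all probe sets and to -0.20 with probe sets ending in s_at, x_at or a_at left out, which also took Dpysl4 to -0.046 (adjusted p = 0.945, limma, and 9.73e-04 to 0.945 over its alternatives). Why these values moved was not tested. With the replicate number as a block, 1932 genes were called, 21 of them in the related lists. The numbers do not pair the samples by the labels, and deviations of same-numbered arrays from their group means correlated at -0.04 across tested genes. Where leaving out a replicate left 1 array in a group, its spread was taken from the other group. No detection calls were available, so intensities under 16 were read only as dim.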
